A study of Mus musculus with 8 samples.

Results

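The genes described here are the ErbB family of receptors, the Met receptor and ligands of both, 10 genes of the 52636 in each count table. They were listed by name, as receptors studied in mesothelioma with their ligands, and no threshold on a measured value was used, though earlier results of these data were known. The 5 receptor genes are Egfr, Erbb2, Erbb3, Erbb4 and Met, and the 5 ligand genes are Nrg1, Areg, Ereg, Hbegf and Hgf. All 10 symbols matched a single Ensembl identifier. The study profiled RNA from 8 malignant mesothelioma samples of mice. Mesothelioma arises from the mesothelium, here that of the pleura by the title of the study. By the labels, the double knockout group (n = 2) lacks Nf2, which encodes the Hippo regulator merlin, and Cdkn2a, which encodes cell cycle inhibitors. The triple knockout group (n = 6) lacks Bap1, a deubiquitinase of histone H2A, as well, so the knockouts of Nf2 and Cdkn2a are common to all 8 samples as labelled. The knockouts are conditional by the title. The labels describe cells kept in RPMI medium with serum, antibiotics, glutamine and added insulin, and give no strain, age, Cre driver or number of mice or cultures. The tissue label names the tumour, so whether RNA came from tumours or from cultured cells is not settled, and the muscle, leukocyte and endothelial transcripts described below were present in the libraries. The p-values measure only the spread between these samples, which may be technical.

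ErbB receptors are receptor tyrosine kinases that pair with each other when a ligand binds. EGFR binds amphiregulin (Areg), epiregulin (Ereg) and HB-EGF (Hbegf), ERBB3 and ERBB4 bind neuregulin 1 (Nrg1), and ERBB2 has no known ligand of its own and acts as the preferred partner of the others. ERBB3 has little kinase activity and signals through its partner to PI3 kinase. MET is the receptor of hepatocyte growth factor (Hgf), a ligand made largely by mesenchymal cells, and both receptor families signal through the MAP kinase and PI3 kinase pathways.

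Total counts per sample ran from 26847202 to 32082535. Levels are counts scaled by TMM-adjusted library size (CPM), fold changes are triple minus double on the log2 scale with their standard error (SE), and a gene was called where its p from edgeR's quasi-likelihood test, adjusted after Benjamini and Hochberg across 17709 tested genes, was under 0.05. Bap1 stood at 106 and 71.2 CPM for the double samples, against 43.1 to 72.1 CPM over the triple group, a difference that was not called (edgeR adjusted p = 0.122). Nf2 stood at 165 and 109 CPM against 62.7 to 100 CPM, and Cdkn2a at 1.54 to 8.76 CPM over all 8 samples, so transcripts of all the targeted genes were counted in every sample. The labels do not say which parts of these genes were deleted, so their levels do not check the labels. Double sample 1 stood apart, with a TMM factor of 0.771 against 0.994 to 1.10 in the others and a summed level of 10 adult skeletal muscle markers of 63600 CPM against 119 to 11800 CPM. Of 10 mesothelial markers, Upk3b, Upk1b, Wt1, Lrrn4, Krt19, Krt7 and Bnc1 were highest in triple sample 3, and Upk3b, Wt1 and Krt19, at 173, 33.2 and 52.9 CPM there, were at no more than 1.76 CPM in any other sample. The other members, Msln, Krt8 and Krt18, were highest in double sample 2, at 342, 799 and 203 CPM, and Msln was counted in all 8 samples, at 12.6 CPM or more. In such bulk samples, fewer cells of a type and less RNA per cell cannot be told apart.

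Ereg rose in the triple samples, and the other 9 genes did not pass the test. The share of all tested genes called was 8.35% in either direction and 2.94% higher in the triple samples, so 1 of 10 is near the background. The groups did not overlap for 2 of the 10 genes, Ereg and Hbegf, both higher in the triple samples, against 24.1% of all tested genes without overlap in either direction. The median log2 fold change of the 10 genes was 0.55, with 6 above 0, beside a median of 0.02 over all genes tested. All 10 genes passed the filter on low counts.

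**Figure D1:**
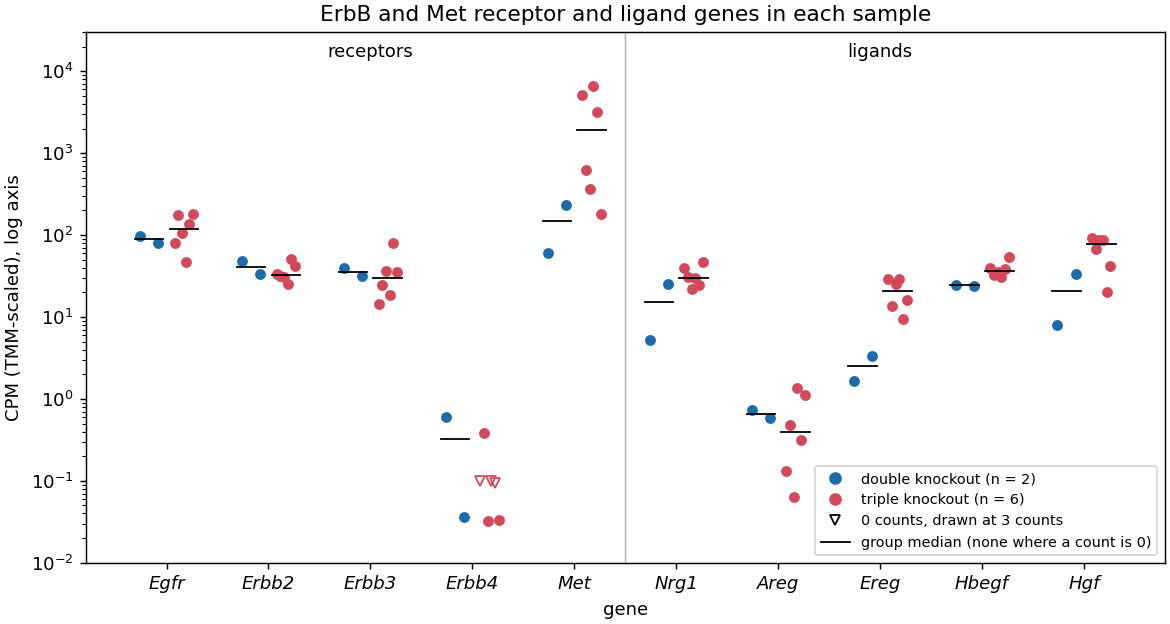
Level of each of the 10 genes in each sample, in CPM on a log axis, with double knockout samples in blue, triple knockout samples in red, a line at the group median except where a sample had no count, and open triangles at the level of 3 counts where none was counted. Met spreads from 59.9 to 6630 CPM, and the groups part without overlap for Ereg and Hbegf only.

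Met (chromosome 6, 17463800 to 17573980 on GRCm38, plus strand) spanned the widest range of CPM of the 10 genes. It stood at 59.9 and 235 CPM for double samples 1 and 2, against 5180, 619, 370, 6630, 3210 and 182 CPM across triple samples 1 to 6. Triple samples 1, 4 and 5 were thus far above the other 5 samples, and triple sample 6 lay between the double samples, so the groups overlapped. Within the triple group the highest sample was 36.4 times the lowest. In triple sample 4 Met took 199955 counts, 0.672% of the library, against 1481 counts in double sample 1. The log2 fold change was 4.19 ± 1.66 (SE) with adjusted p = 0.144 by edgeR. DESeq2 gave 4.18 ± 1.15 with adjusted p = 0.00345, and the other fits of all 8 samples did not call it. Within the samples that share the description code SN930 (double 1, triple 4, 5 and 6), whose meaning the labels do not give, the value was 5.82 ± 2.5, and within the other 4 samples it was 3.10 ± 2.02, neither called. Each of these subsets, and each fit without 1 double sample, holds a single double sample, which is taken to vary like the triple samples.

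RefSeq promoter windows (GRCm38.p6) of Met and of its ligand Hgf are shown, since Met carried the widest range and Hgf pairs with it. A window is the 250 bases before the RefSeq start of transcription, plus strand, and the stretch printed for Met stops where the annotated gene begins. Capitals mark matches, on either strand, to 4 motifs: TEAD (GGAATG), AP-1 (TGACTCA or TGAGTCA), the GC box (GGGCGG) and the myogenic E-box (CAGCTG). The stretches are chr6:17463707-17463799 for Met and chr5:16553245-16553494 for the first Hgf start.
Met: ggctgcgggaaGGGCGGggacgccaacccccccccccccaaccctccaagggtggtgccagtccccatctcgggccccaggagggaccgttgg
Hgf: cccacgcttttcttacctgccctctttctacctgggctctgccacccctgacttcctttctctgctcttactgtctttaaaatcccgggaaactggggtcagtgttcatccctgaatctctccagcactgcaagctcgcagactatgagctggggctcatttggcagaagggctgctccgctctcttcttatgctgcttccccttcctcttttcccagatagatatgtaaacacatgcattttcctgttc
The whole Met window was 74.0% G and C and held 3 GC boxes, 1 of them in the stretch shown, and 1 AP-1 match. None of these matches overlapped another. The Hgf window was 50.8% G and C and held none of the 4 motifs. Among 32851 promoter windows of this length, 32.7% held a GC box, 4.46% an AP-1 match, 12.6% a TEAD match and 13.0% a myogenic E-box. A match describes letters and is not a binding site. Windows were matched for 6 of the 10 genes, Egfr, Erbb2, Erbb4, Areg, Met and Hgf.

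Many genes beside Met on chromosome 6 were high in triple samples 1 and 4, and fewer were high in triple sample 5. These neighbours were the tested genes within 2.5 Mb of either end of Met whose coordinates and strand matched GENCODE M21. They were examined after the values of Met had been seen. Of 17 such genes with a mean of at least 1 CPM, Met among them, 13 had their 2 highest levels in triple samples 1 and 4, 76.5% against 6.01% of the 14605 other genes at that level. These samples were picked as those where Met was highest, so the place of Met among the 13 was fixed by that choice. In triple sample 4, 13 of the 17 were at least 4 times their median over the 8 samples, and in triple sample 1 it was 10. In triple sample 5 it was 2, Met itself and St7, and in the other 5 samples it was 0. Of the other 14605 genes, 0.863% reached that level in triple sample 4, 0.856% in triple sample 1 and 0.828% in triple sample 5. Any gene of the window that did not match GENCODE M21 counted among these 14605.

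Capza2, which encodes a subunit of the actin capping protein, starts 172.4 kb beyond the start of Met. It read 335 and 418 CPM for the double samples, against 4230, 434, 327, 8550, 1270 and 294 CPM across triple samples 1 to 6. Cav1 (caveolin 1), at -157.5 kb from the start of Met, stood at 143 and 517 CPM and at 7290, 581, 498, 13300, 1580 and 514 CPM in the same order. Triple samples 1, 4 and 5 were again the highest for both genes, though triple sample 5 was 2.88 times the median for Cav1 and 2.98 times for Capza2, beside 6.49 times for Met. St7 followed the same order, at 331, 668 and 147 CPM in triple samples 1, 4 and 5 and at most 34.5 CPM elsewhere. Tes, a focal adhesion gene, stood at 3840, 8880 and 630 CPM in these samples and at most 247 CPM elsewhere.

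The run of raised genes differed in extent between samples. Tfec lies at -630.4 kb from the start of Met. It was 1.54 and 2.51 times its median in triple samples 1 and 4, and 0.589 times in triple sample 5. Mdfic, at -1743.1 kb from the start of Met, stood at 78.5 and 84.1 CPM in triple samples 1 and 4, near its median, and at 172 CPM in triple sample 5, its highest level and 2.15 times the median. In the other 5 samples it stood at 52.9 to 81.3 CPM. Between Mdfic and Met, Gm4876 and Cav2 were 0.481 and 0.815 times their medians in triple sample 5. Tes and Cav1 were 2.83 and 2.88 times theirs there. At the other side, Cttnbp2 was 13.6 times its median in triple sample 1 and 3.96 times in triple sample 4. Gm5874, 1360.8 kb beyond Met, was 0.951 and 0.89 times its median in triple samples 1 and 4, at 1.06 and 0.995 CPM. Gm20186, 1382.1 kb beyond Met, stood at 37.8 CPM in triple sample 4 and at 1.3 to 4.69 CPM in the other 7 samples. Lsm8, an RNA-binding protein gene 1384.8 kb beyond Met, stood at 1020 CPM in triple sample 4 and at 15.3 to 64.6 CPM in the other 7 samples, triple sample 1 among them at 51.8 CPM. Triple sample 2, at 619 CPM the fourth highest for Met, had Capza2 and St7 near their medians, at 1.02 and 1.17 times. The median chromosome 6 gene outside this window differed from its median over samples by 0.15 on the log2 scale in triple sample 5, against 0.02 over all genes of that sample, and by -0.04 to 0.02 in the other 7 samples. Copies of DNA were not measured, and the use of strand in counting is unknown, so genes that overlap others here, such as Gm4876 and Tes, cannot be told apart from them.

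**Figure D2:**
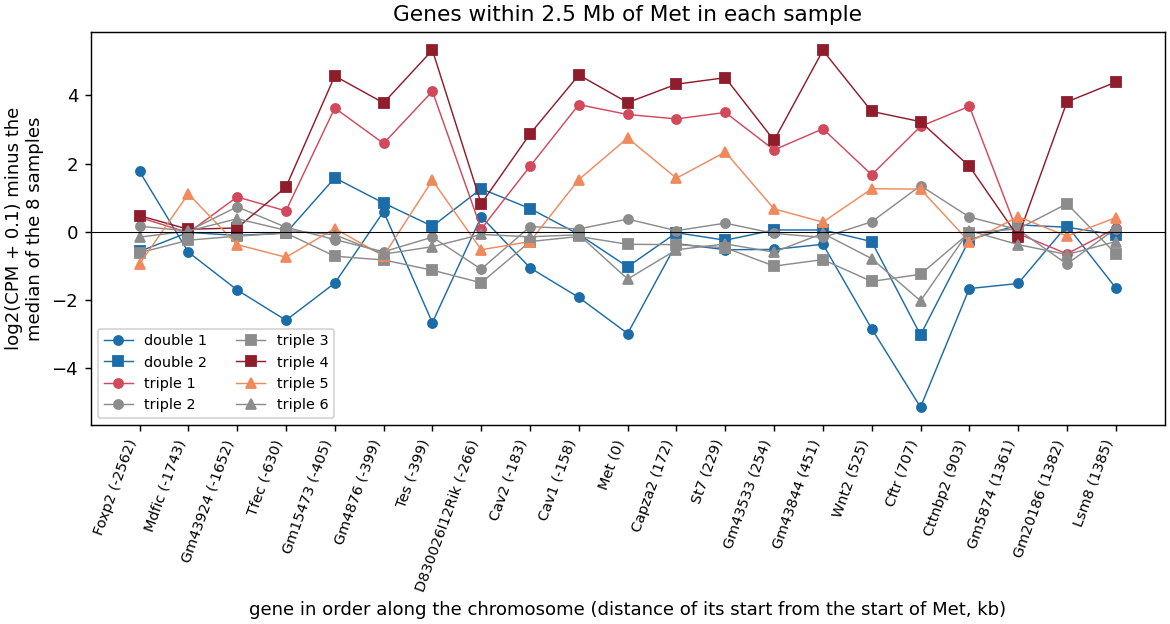
Each tested gene within 2.5 Mb of Met that matched GENCODE M21, in chromosome order with its distance from Met in kb. Values are log2(CPM + 0.1) minus the median of the gene over the 8 samples. Triple samples 4 and 1 run above the others from Gm15473 to Cttnbp2, with D830026I12Rik as a break. Triple sample 5 rises around Met, and Gm20186 and Lsm8 are high in triple sample 4 alone.

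Hgf (chromosome 5, 16553495 to 16620152) read 8.01 and 33.9 CPM for the double samples, against 93.5, 68.6, 86.7, 88.3, 20.4 and 42.2 CPM across triple samples 1 to 6. Double sample 1 was the lowest, and double sample 2 lay above triple sample 5, so the groups overlapped. The log2 fold change was 1.67 ± 0.70 (SE; edgeR adjusted p = 0.165). It was 3.07 ± 0.89 without double replicate 2 (adjusted p = 0.0376) and 0.97 without double replicate 1. Within the SN930 samples it was 2.67 ± 1.00 and within the others 1.28 ± 0.24, neither called. Per kb of exon, Met transcript exceeded that of its ligand in every sample. The ratio of Met to Hgf was 7 and 6.48 in the double samples, 8.44, 3.99 and 4.04 in triple samples 2, 3 and 6, and 51.9, 70.2 and 147 in triple samples 1, 4 and 5.

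Among the ErbB receptors no gene differed between the groups by the test. Egfr (chromosome 11, 16752203 to 16918158) read 97.5 and 79.5 CPM for the double samples, against 79.3, 178, 105, 46.7, 135 and 179 CPM across triple samples 1 to 6. The triple samples lay on both sides of the double samples, with triple samples 2 and 6 the highest and triple sample 4, where Met was highest, the lowest. Its log2 fold change was 0.44 ± 0.47 (SE; edgeR adjusted p = 0.562). Erbb2 (chromosome 11, 98412470 to 98437716) was the steadiest receptor, at 48.7 and 33.6 CPM for the double samples, against 33.7, 31.9, 31.1, 25.5, 50.5 and 41.4 CPM across triple samples 1 to 6. Both double samples lay inside the range of the triple samples, whose median was 32.8 CPM. Its log2 fold change was -0.21 ± 0.27 (SE; edgeR adjusted p = 0.645), and 0.07 without double replicate 1. Within the SN930 samples and the others the values were 0.32 and 0.60 for Egfr, -0.30 and -0.08 for Erbb2, and 0.19 and -0.34 for Erbb3, none called.

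Erbb3 (chromosome 10, 128567523 to 128589652) read 39.7 and 31.6 CPM for the double samples, against 14.4, 24.3, 36.7, 18.5, 80.2 and 35.0 CPM across triple samples 1 to 6. Triple sample 5 was more than any other sample, and the double samples fell inside the range of the triple samples. The log2 fold change was -0.03 ± 0.58 (SE; edgeR adjusted p = 0.977), and 0.05 with upper-quartile scaling. ERBB3 is the neuregulin receptor of Schwann cells, the glia of peripheral nerve, and markers of these cells were high in the same sample. The summed level of 10 Schwann cell markers was 308 and 224 CPM in the double samples and 189, 315, 536, 238, 771 and 375 CPM in triple samples 1 to 6. Sox10, which defines the lineage, stood at 109 CPM in triple sample 5 and at 12.6 to 53.5 CPM in the others, and 8 of the 10 markers had their highest level in triple sample 5, against 13.8% of all genes tested. Between the genotypes none of the 10 was called by edgeR, DESeq2 or limma-voom, and none was at an unadjusted p under 0.05. None of the 10 was at 0 in any sample. The part of such cells in the level of Erbb3 was not tested.

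Erbb4 (chromosome 1, 68032186 to 69108059) had few reads, with 15 and 1 counts in the double samples and 0, 12, 1, 0, 0 and 1 counts in triple samples 1 to 6. The 0 counts allow up to 3 counts, a level of 0.0950 to 0.0996 CPM, and the limits cover counting error only. Double sample 1 and triple sample 2, at 0.607 and 0.380 CPM, held nearly all its counts, and these samples also had the 2 highest summed levels of the adult skeletal muscle markers, 63600 and 11800 CPM, whose part was not tested. None of these 10 muscle markers was called by edgeR or limma-voom, 2 were called lower by DESeq2 and 3 were lower at an unadjusted p under 0.05. The log2 fold change was -2.02 ± 1.44 (SE; edgeR adjusted p = 0.384), and 0.99 ± 2.64 without double replicate 1. Within the SN930 samples, where no triple sample had more than 1 count, it was -5.31 ± 1.24 (adjusted p = 0.0636).

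As a share of the summed ErbB receptor level per kb, Egfr made up 35.0% and 37.5% in the double samples and 34.1% to 60.7% in the triple samples. Erbb2 made up 38.0% and 34.5%, and 23.6% to 40.8% in the triple samples. Erbb3 made up 26.8% and 28%, and 15.1% to 38.2%, and Erbb4 no more than 0.200% in any sample. Egfr took the largest share in triple sample 2, and Erbb3 in triple sample 5 was ahead of both others. These shares rest on the exon length of all annotated transcripts of each gene, so a sample that uses shorter transcripts would be read too low.

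**Figure D3:**
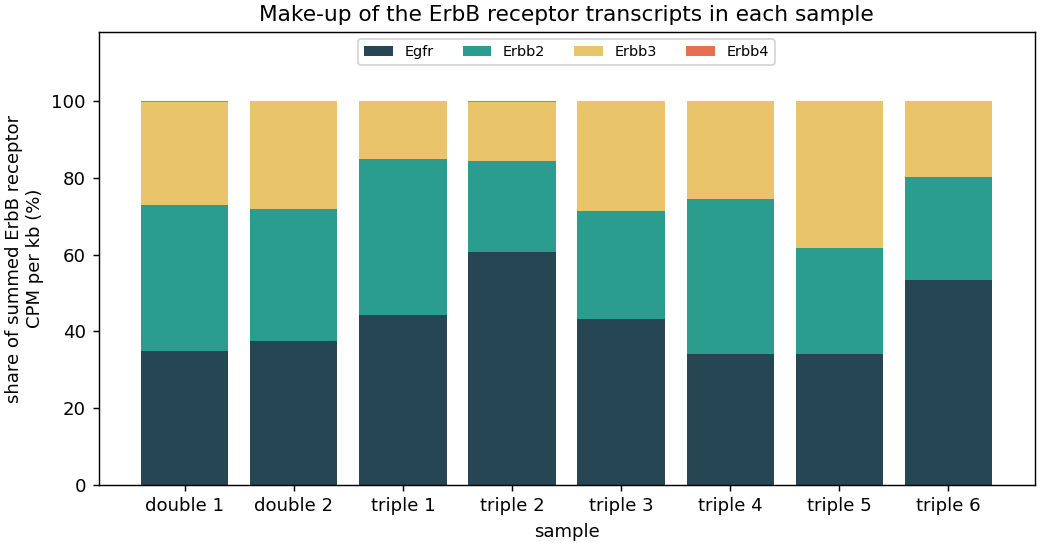
Share of each ErbB receptor in the summed ErbB receptor level (CPM per kb of exon, in percent) in each sample. Egfr, Erbb2 and Erbb3 split the total in all 8 samples, with Egfr at 60.7% in triple sample 2 and Erbb3 at 38.2% in triple sample 5, and Erbb4 is barely visible.

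Of the EGFR ligands, Ereg (chromosome 5, 91074622 to 91093646) was higher in each triple sample than in either double sample. It read 1.66 and 3.32 CPM for the double samples, from 41 and 92 counts, against 29.5, 13.7, 25.1, 29.4, 9.50 and 16.1 CPM across triple samples 1 to 6, from 300 to 890 counts. The means were 2.49 ± 1.18 CPM (SD, n = 2) and 20.6 ± 8.59 CPM (SD, n = 6), which is 3.04 ± 0.59 (SE) on the log2 scale with edgeR adjusted p = 0.021. Triple samples 1, 3 and 4 were the highest, and triple sample 5 the lowest of its group. In 7 other fits of all 8 samples the value was 2.98 to 3.09 and each called it. Without double replicate 1 the value was 2.62 ± 0.75 and the call was lost (adjusted p = 0.151), while without any other 1 sample it held (adjusted p = 0.0148 to 0.0426). Within the SN930 samples the value was 3.48 ± 0.88 (adjusted p = 0.0727), within the other 4 samples it was 2.76 ± 0.59 (adjusted p = 0.223), and adding the code to the model gave 3.09 ± 0.58 (adjusted p = 0.0298). Gm19610, on the other strand, overlaps the start of Ereg and stood at 0.0810 and 0.903 CPM against 1.14 to 4.28 CPM, and reads of the pair cannot be told apart where strand was not used.

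Epiregulin is made by several cell types, macrophages and fibroblasts among them, so their markers are set beside it. The summed level of 10 leukocyte markers was 761 and 1690 CPM in the double samples and 1610 to 2470 CPM in the triple samples, with overlap, and 2 of the 10 rose, the macrophage gene Cd68 and the integrin gene Itgam. The defining marker Ptprc was counted in all samples, at 25.1 and 114 CPM in the double and 74.3 to 151 CPM in the triple samples. The sum of 10 fibroblast markers was 11900 and 14200 CPM against 19900 to 45600 CPM, without overlap, and 1 of the 10 rose, Pdgfra. The collagen genes Col1a1, Col1a2 and Col3a1 carried most of this sum, at 3300, 4830 and 2790 CPM in double sample 1. Col1a1 and Col1a2 overlapped between the groups, at 3000 and 4700 CPM in triple sample 3, below both double samples. Of the 10 fibroblast log2 fold changes 8 were above 0, and those of Pdgfrb (-0.5) and Mfap5 (-0.16) were below. Of the 10 markers 3 were higher without overlap, beside 2264 of all 17709 tested genes. The sum of 10 embryonic myogenic markers was 6450 and 2060 CPM against 5.17 to 164 CPM, and 8 of the 10 fell. The sum of 10 epithelial markers was 5.95 and 8.77 CPM against 6.07 to 38.4 CPM, and 1 of the 5 tested, Epcam, rose. The endothelial sum was 525 and 406 CPM against 326 to 838 CPM, with 1 of 10 lower, Tek (edgeR adjusted p = 0.0499). Tek stood at 89.7 and 20.8 CPM against 9.91 to 22.7 CPM, so only double sample 1 lay above the triple range. The mesothelial sum was 290 and 1350 CPM against 59.9 to 828 CPM, with none called by edgeR or limma-voom, 1 by DESeq2 and 1 at an unadjusted p under 0.05. The part of these cells in the level of Ereg was not tested.

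**Figure D4:**
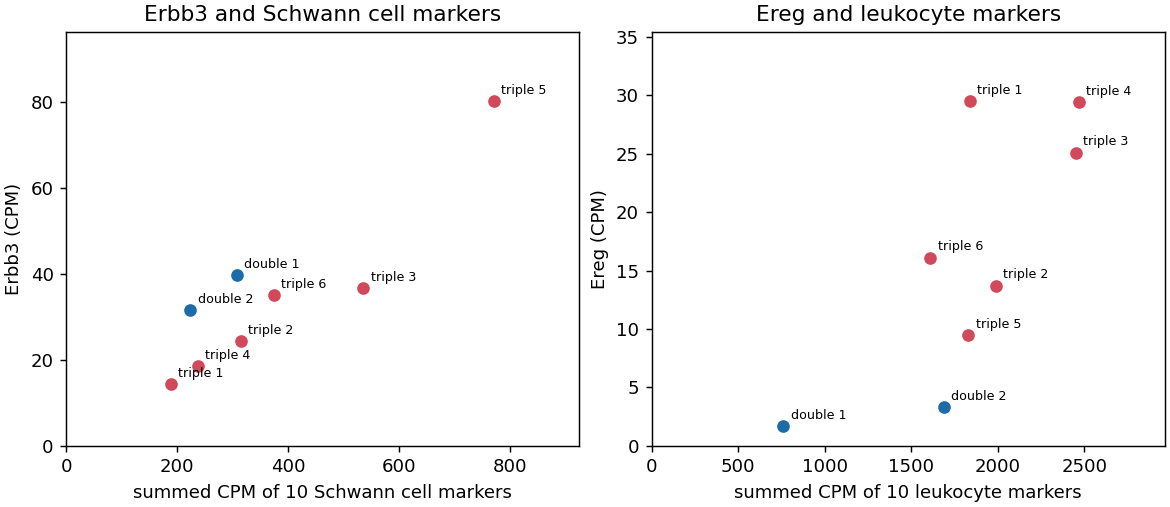
Erbb3 against the summed CPM of 10 Schwann cell markers (left) and Ereg against that of 10 leukocyte markers (right), 1 point per sample, double samples in blue and triple samples in red. Triple sample 5 is highest on both axes at left, and at right the double samples lie lowest for Ereg while double sample 2 lies within the triple range of the leukocyte sum.

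Areg lies next to Ereg on chromosome 5 (91139599 to 91148432). It read 0.729 and 0.578 CPM for the double samples, against 0.133, 0.475, 0.0642, 1.36, 0.317 and 1.13 CPM across triple samples 1 to 6, from 2 to 41 counts over all samples. The log2 fold change was -0.17 ± 0.98 (SE; edgeR adjusted p = 0.926), and the sign turned in fits without triple replicate 1 (0.04) or 3 (0.06). Per kb, Ereg was 0.670 and 1.69 times Areg in the double samples and 4.18 to 115 times in the triple samples. The same stretch holds 2 more EGFR ligand genes. Epgn (epigen) stood at 7.12 and 0.433 CPM for the double samples, against 0.158 to 0.564 CPM over the triple group, so only double sample 1 was high. Btc (betacellulin) read 1.42 and 1.84 CPM against 0.767 to 9.15 CPM, triple sample 3 being the highest.

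Hbegf (chromosome 18, 36504929 to 36515805) read 24.8 and 23.9 CPM for the double samples, against 39.4, 32.7, 35.4, 30.4, 38.5 and 54.2 CPM across triple samples 1 to 6. All 6 triple samples were above both double samples, by a small step beside that of Ereg. The means were 24.3 ± 0.671 CPM (SD, n = 2) and 38.4 ± 8.44 CPM (SD, n = 6), with a log2 fold change of 0.66 ± 0.24 (SE; edgeR adjusted p = 0.122). It was called in none of the alternative fits, with values of 0.50 to 0.75, the highest within the SN930 samples and 0.57 within the others.

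Nrg1 (chromosome 8, 31814551 to 32884029), the neuregulin that binds ERBB3 and ERBB4, read 5.18 and 25.0 CPM for the double samples, against 40.0, 30.8, 22.1, 29.6, 24.5 and 46.7 CPM across triple samples 1 to 6. Double sample 1 was low, and double sample 2 lay within the triple range. The log2 fold change was 1.10 ± 0.55 (SE; edgeR adjusted p = 0.226). It was 2.66 ± 0.50 without double replicate 2 (adjusted p = 0.008) and 0.36 without double replicate 1, so its size rested on double sample 1. Within the SN930 samples it was 2.72 ± 0.53 (adjusted p = 0.049) and within the others 0.30 ± 0.38 (adjusted p = 0.776).

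Per kb of exon, Met came first in both groups and Erbb4 last. The rank of Hgf varied among the triple samples, from next after Met in triple samples 1, 3 and 4 to below Hbegf in triple samples 5 and 6. By the median of the triple samples the order was Met (249 CPM per kb), Hgf (10.8), Egfr (10.6), Hbegf (7.64), Erbb2 (6.29), Ereg (4.99), Erbb3 (4.93), Nrg1 (2.92), Areg (0.326) and Erbb4 (0.0013). Met, at 23.7 to 863 CPM per kb, lay above the highest value of any other of these genes, 15.8 CPM per kb for Egfr. From Hgf to Nrg1 each gene overlapped its neighbour in the order, while Areg, at no more than 1.12 CPM per kb, lay below the lowest Nrg1 value of 2.14, and Erbb4 lay below Areg. By the mean of the double samples the order was Met (19.2 CPM per kb), Erbb2 (7.91), Egfr (7.81), Erbb3 (5.92), Hbegf (5.03), Hgf (2.92), Nrg1 (1.46), Ereg (0.603), Areg (0.538) and Erbb4 (0.026). Met, Erbb2 and Egfr overlapped there from neighbour to neighbour, as did Hgf, Nrg1, Ereg and Areg. Erbb3 (at most 6.59) lay below Egfr (at least 7.02), and Hbegf (at most 5.13) below Erbb3 (at least 5.25) and above Hgf (at most 4.72). In double sample 1 Erbb2 (9.35) and Egfr (8.61) exceeded Met (7.81).

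**Figure D5:**
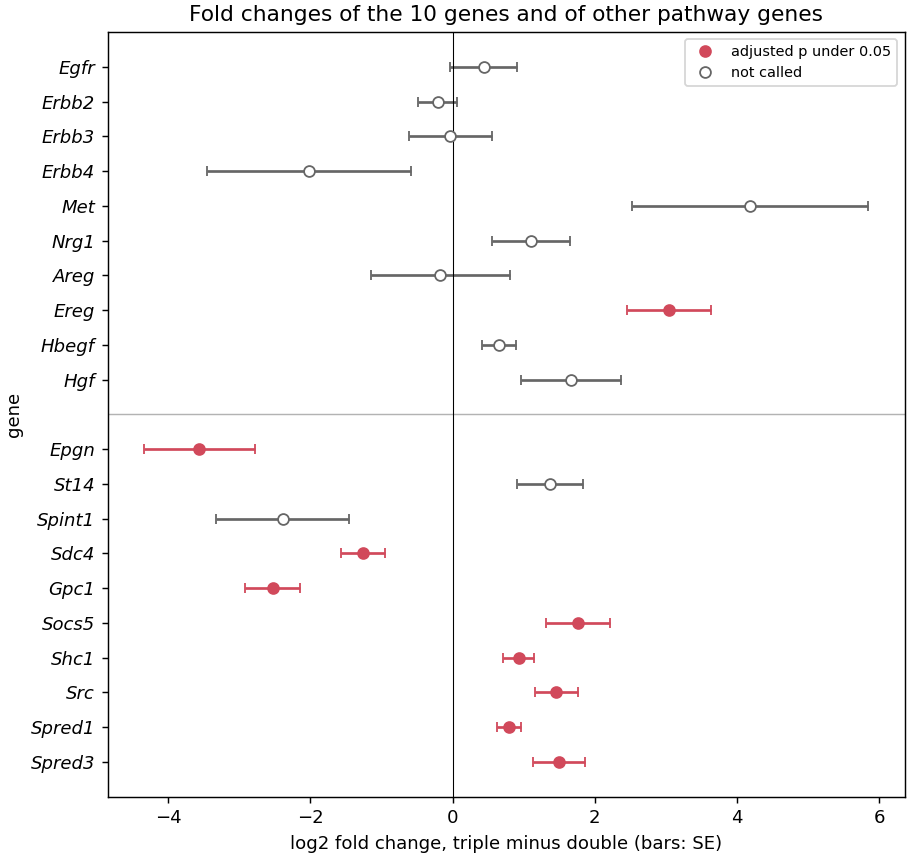
Log2 fold change, triple minus double, with its standard error, for the 10 genes (above the line) and for pathway genes taken by the naming rule (below it), filled where the adjusted p was under 0.05. Ereg is the called gene above the line, at 3.04, and Met has the largest fold change and the widest error, 4.19 ± 1.66.

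Other genes of the pathway were taken from 6 lists with 94 genes, of which 91 were tested. The test called 5 higher and 3 lower and left 83 uncalled, at a median log2 fold change of 0.14, so the share called, 8 of 91, was near the 8.35% of all tested genes. Among 6 tested ErbB ligands outside the 10 genes, 1 fell, Epgn, by 3.56 ± 0.78 on the log2 scale (SE; edgeR adjusted p = 0.0308), and -0.46 remained without double replicate 1. The median of these ligands was -0.90. Egf stood at 18.1 and 2.92 CPM against 0.830 to 5.60 CPM, and Tgfa at 0.486 and 1.99 CPM against 0.367 to 2.72 CPM, neither called. Of 12 genes of ligand shedding and HGF activation none was called by edgeR or limma-voom, 1 was called by DESeq2 and 3 were at an unadjusted p under 0.05 by edgeR, 2 of them higher, with a median of 0.16. St14 (matriptase, which activates pro-HGF) stood at 0.567 and 1.34 CPM against 1.73 to 3.07 CPM, and the HGF activator inhibitor Spint1 at 0.121 and 8.95 CPM against 0.597 to 1.46 CPM.

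Of 9 tested co-receptor genes, 2 fell and 0 rose by edgeR. With DESeq2 2 were called higher and 2 lower, and by edgeR 2 were higher and 2 lower at an unadjusted p under 0.05. Gpc1 (glypican 1, a heparan sulphate proteoglycan) stood at 1110 and 554 CPM for the double samples, against 65.7 to 214 CPM over the triple group, and fell by 2.53 ± 0.39 (SE; edgeR adjusted p = 0.00968). Sdc4 (syndecan 4) fell by 1.26 ± 0.31, from 250 and 123 CPM to 54.9 to 116 CPM (edgeR adjusted p = 0.0426). Mst1r, the MET-related receptor RON, stood at 3.60 and 5.52 CPM against 5.23 to 25.8 CPM and was not called (adjusted p = 0.107). Of 17 inhibitors and turnover genes 1 rose by edgeR, Socs5, from 21.1 and 78.7 CPM to 145 to 200 CPM. DESeq2 called 4 higher and 1 lower, and by edgeR 6 were higher and 2 lower at an unadjusted p under 0.05. The groups did not overlap for 7 higher and 2 lower genes of the 17, the most of any of these lists, beside 24.1% of all tested genes. Over all 91 tested pathway genes it was 16 higher and 7 lower, near that background.

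Of 27 tested adaptors and effectors 2 rose and 0 fell by edgeR, and the median was -0.13. With DESeq2 2 were called higher and 3 lower, and by edgeR 2 were higher and 6 lower at an unadjusted p under 0.05. The kinase gene Src rose by 1.46 ± 0.30 (SE; edgeR adjusted p = 0.0249), from 35.0 and 76.1 CPM to 122 to 170 CPM, and the adaptor Shc1 by 0.93 ± 0.22, from 71.8 and 112 CPM to 142 to 201 CPM. Of 20 MAP kinase feedback and target genes 2 rose by edgeR, Spred1 and Spred3, inhibitors of Ras to MAP kinase signalling, and 0 fell. DESeq2 called 3 higher and 2 lower, and by edgeR 4 were higher and 2 lower at an unadjusted p under 0.05. The median of the 20 was 0.48. Spred1 stood at 89.8 and 121 CPM for the double samples, against 174 to 189 CPM over the triple group. All 8 called pathway genes lost their call without double replicate 1 (adjusted p = 0.0739 to 0.851). Between 1 and 3 of the 8 held it without a given triple sample, Gpc1 in each case. With the description code in the model Gpc1, Shc1, Src and Spred1 kept their call, and Epgn (adjusted p = 0.0884), Sdc4 (0.075), Socs5 (0.0725) and Spred3 (0.0592) lost it. Sdc4 also lost it with upper-quartile scaling (0.0541) and limma-voom (0.0635), Socs5 with upper-quartile scaling (0.0539), Epgn with limma-voom (0.151) and Shc1 with no filter on low counts (0.0522).

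By log2 CPM over the 8 samples, the 3 genes most like Ereg among 14621 with a mean of at least 1 CPM were Rap1b (Pearson r = 0.989), Plekha3 (0.987) and Eml1 (0.980). Over the 6 triple samples alone r was 0.954, 0.983 and 0.941. The samples share their libraries and scaling, and genes picked as the nearest of so many have a high r by their choice. Rap1b, which encodes a small GTPase, kept to a narrow range, at 214 and 222 CPM against 257 to 286 CPM, and was not called (adjusted p = 0.186). Eml1, a microtubule-associated protein gene, rose by 1.70 ± 0.31 (SE; edgeR adjusted p = 0.0182).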

How the data were processed

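The 8 libraries, of mRNA-enriched RNA from mouse mesothelioma, are 2 double and 6 triple knockouts by the genotype label. The authors deposited raw counts per gene for each sample. HTSeq, DESeq2, mm10 and GRCm38 are named in the submitters' processing notes, with no aligner, annotation release or use of strand stated (not given in the sources used here). Of 52636 genes in each table, 52403 had a symbol and 49870 matched coordinates of GENCODE M21 (GRCm38), from which exon lengths came. Counts were scaled by TMM, genes of low count were dropped with filterByExpr, and triple was compared with double with edgeR 4.0.16 (quasi-likelihood test, R 4.3.3) over 17709 genes, with Benjamini-Hochberg adjustment and a threshold of 0.05. The standard error is the log2 fold change divided by the square root of F. DESeq2 1.42.0, limma 3.58.1 (voom), other scalings and filters, a term for the description code, subsets by that code and fits without each sample were alternatives. The procedure was tested on simulated counts, in which all samples shared a dispersion per gene and none was set apart as double sample 1 is. The simulation therefore cannot show how such a sample affects the calls. In all 28 pairs of samples the counts differed by more than sampling noise, with a median chi-square per gene of at least 10.5 against 0.455 from sampling noise alone. Limits from 3 counts cover counting error only. The genes and lists were chosen with earlier results of these data known. Named are the 10 genes, up to 4 called genes of smallest p in each other pathway list (the 2 of smallest p where none was called) and the 3 genes most like each called gene by Pearson r of log2 CPM. Btc, Egf, Tgfa, Mst1r and the neighbours of Met and Ereg were added after their values were seen. Cell type markers are described as lists, and the members named were picked as defining their cell type, as called, or after their values were seen.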

Additional observations from a re-analysis of the deposited data

Results flagged for a closer look

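Erbb3 in triple sample 5, at 80.2 CPM, lay far above the other 5 triple samples, of which the nearest stood at 36.7 CPM, a gap of 0.66 of the whole range past the critical value for 6 samples. Erbb4 in triple sample 2, at 0.38 CPM from 12 counts, lay above the nearest sample at 0.0333 CPM, a gap of 0.912 of the range. The triple samples of 20 genes were checked in this way. For normally distributed values chance alone puts about 1 in 20 groups past this limit. That rate was not shown to hold for CPM, least of all for counts near 0 as in Erbb4.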

How the results depend on the processing

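The count of genes called was 1478, and it was 3380 with DESeq2, 962 with the description code as a term, 1 within the codes other than SN930 (2506 at an unadjusted p under 0.05) and 315 to 5579 without 1 sample, the lowest without double replicate 1 and the highest without double replicate 2. Of the 10 genes 1 was called, with 2 by DESeq2 (Ereg and Met), 0 within the other codes by edgeR (3 at an unadjusted p under 0.05) and 0 to 3 without 1 sample. Without double replicate 2 the 3 were Nrg1, Ereg and Hgf. Of the other pathway genes 8 were called, with 22 by DESeq2, 4 with the code as a term, 24 within SN930, 0 within the other codes by edgeR (16 at an unadjusted p under 0.05) and 1 to 35 without 1 sample. The sign turned for Erbb3 with upper-quartile scaling (0.05) and within SN930 (0.19), and for Areg within SN930 (0.38). Without 1 sample the log2 fold change ran from -0.44 to 0.07 for Erbb2, -0.47 to 0.13 for Erbb3, -2.93 to 0.99 for Erbb4 and -0.62 to 0.06 for Areg. The cause of these shifts was not tested. Egfr, Nrg1, Ereg, Hbegf, Met and Hgf kept a positive sign in every fit run. Erbb4 had no value under the filter of 1 CPM, within the other codes or without triple replicate 2, where it fell below the filter, and Epgn had none under the filter of 1 CPM. No paired analysis was possible because the labels give the samples no shared replicate numbers. DESeq2 put 44.3% of its calls higher in the triple samples against 35.2% by edgeR.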
